A study of Rattus norvegicus with 6 samples.

Results

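The ErbB receptor family and its ligands were followed in 3 cultured rat populations, deposited as olfactory ensheathing cells or a line made from them. Ensheathing cells are the glia that wrap olfactory axons, and many of their markers were far from equal in the 3 populations, as given below. The family was taken as 9 genes, 3 receptors (Erbb3, Erbb2, Egfr) and 6 ligands (Nrg1, Tgfa, Btc, Hbegf, Areg, Ereg), and all probe sets whose only annotated gene was one of them were used. This gave 34 probe sets of 39898, 15 on U34A arrays and 19 on RAE2.0 arrays. TEG3 was a clonal line from Wistar rats of 60 days, made by transfecting a culture of these cells with a plasmid that encodes SV40 large T antigen; as 1 clone it stands for no other line, and the promoter on the plasmid is not given in the sources used here. OEC Lp was a primary culture from the olfactory nerve layer of Wistar rats of 21 days that had been passaged beyond 50 population doublings. OEC Ep came from the same tissue, strain and age but had gone through less than 3 doublings. The labels give OEC Lp and OEC Ep a purity above 90% in immunocytochemistry. All 3 populations were grown in the same medium, with 3% serum, 20 µg/ml bovine pituitary extract and 2 µM forskolin, an activator of adenylyl cyclase. Each population was on 1 U34A and 1 RAE2.0 array, so 2 arrays per population limit the precision. Each RNA pool came from 3 cultures; which of the 2 pools per population went on which array is not stated, so the spread between arrays may be technical only.

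EGF-like ligands are made as membrane proteins whose outer part is cut off by metalloproteases and binds ErbB receptors on the same or a neighbouring cell. Egfr binds Tgfa, Areg, Btc, Hbegf and Ereg, while Erbb3 binds neuregulins, has little kinase activity of its own and signals in a pair with Erbb2, which has no known ligand. In Schwann cells, neuregulin 1 from axons acts through Erbb2 and Erbb3 and is needed for survival, growth and myelination, and neuregulins are used as mitogens for cultured ensheathing cells.

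Values are signal intensities that the authors obtained with MAS5 software, without detection calls. Each array type had a floor at its 40th percentile, 128.4 for U34A and 168.0 for RAE2.0, to which dimmer signals were raised; where the dimmer population lies there, the fold is a lower bound and is written as "at least". Signals were compared within an array type only, since the types were normalized separately and their probes differ. Of the 34 probe sets, 24 exceeded the floor on at least 1 array, 10 on U34A and 14 on RAE2.0, and 7 of the 9 genes could be tested with limma over both types. Btc was measured on RAE2.0 only, and Ereg stayed below the floor.

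The arrays of a type had 59.1 to 61.8% of probe sets above the floor. The mean share is set by the percentile chosen for the floor, so it is no measure of array quality. The ratio of 3' to 5' GAPDH signal, a sign of RNA quality, was 1.54 in TEG3, 1.52 in OEC Lp and 1.96 in OEC Ep on U34A, and between 0.981 and 1.02 on RAE2.0. Markers of ensheathing and Schwann cells had summed signals on RAE2.0 of 11275 in TEG3, 27618 in OEC Lp and 180318 in OEC Ep, where 6, 8 and 15 of 17 genes were above the floor. On U34A the sums were 15894 in TEG3, 49598 in OEC Lp and 136546 in OEC Ep, with 10, 9 and 12 of 13 genes above it. S100b had 168 in TEG3, 168 in OEC Lp and 40365 in OEC Ep on RAE2.0, and Sox10 had 233, 168 and 5743. Other markers stayed above the floor: Ngfr had 3621 in TEG3, 2569 in OEC Lp and 12716 in OEC Ep on U34A, although TEG3 and OEC Lp were at the floor on RAE2.0, and Apoe had 299 in TEG3, 14669 in OEC Lp and 22929 in OEC Ep on RAE2.0. Of 16 genes of this list that passed on RAE2.0, 11 were at least 2-fold lower and 2 higher in OEC Lp against OEC Ep. In TEG3 against OEC Ep 12 were lower and 1 higher. Tfap2a had 708 in TEG3, 382 in OEC Lp and 168 in OEC Ep on RAE2.0. Foxd3 had 630, 1491 and 980 on U34A, although OEC Ep was the highest on RAE2.0. Markers of microglia and macrophages summed to 2231 in TEG3, 3891 in OEC Lp and 71610 in OEC Ep on RAE2.0, with 4, 3 and 13 of 14 genes above the floor. Aif1 and C1qb were at the floor in TEG3 and OEC Lp on both types. On U34A the macrophage sums were 1889 in TEG3, 1976 in OEC Lp and 32352 in OEC Ep, with 3, 5 and 7 of 10 genes above the floor. Neuron markers summed to 4948, 1183 and 47430 on RAE2.0. Fibroblast and meningeal markers summed to 52365, 197873 and 185442 on RAE2.0, where 8, 10 and 8 of 12 genes were above the floor, and on U34A to 152292, 185508 and 217214. The like RAE2.0 sums of OEC Lp and OEC Ep hide opposite differences. In OEC Lp 6 of 12 genes were at least 2-fold higher than in OEC Ep and 4 lower, against 10.4% of all genes in each direction. Foxc1 had 200 in TEG3, 2118 in OEC Lp and 168 in OEC Ep on RAE2.0, and Postn had 168, 394 and 56582. Epithelial markers summed to 738 in TEG3, 2032 in OEC Lp and 777 in OEC Ep on RAE2.0, with 2, 4 and 1 of 6 genes above the floor; Cdh1, E-cadherin, had 1071 in OEC Lp and was at the floor in TEG3 and OEC Ep. The part of other cell types and of RNA quality in the results below was not tested, and fewer cells of a type and less RNA per cell cannot be told apart in these bulk samples.

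**Figure D1:**
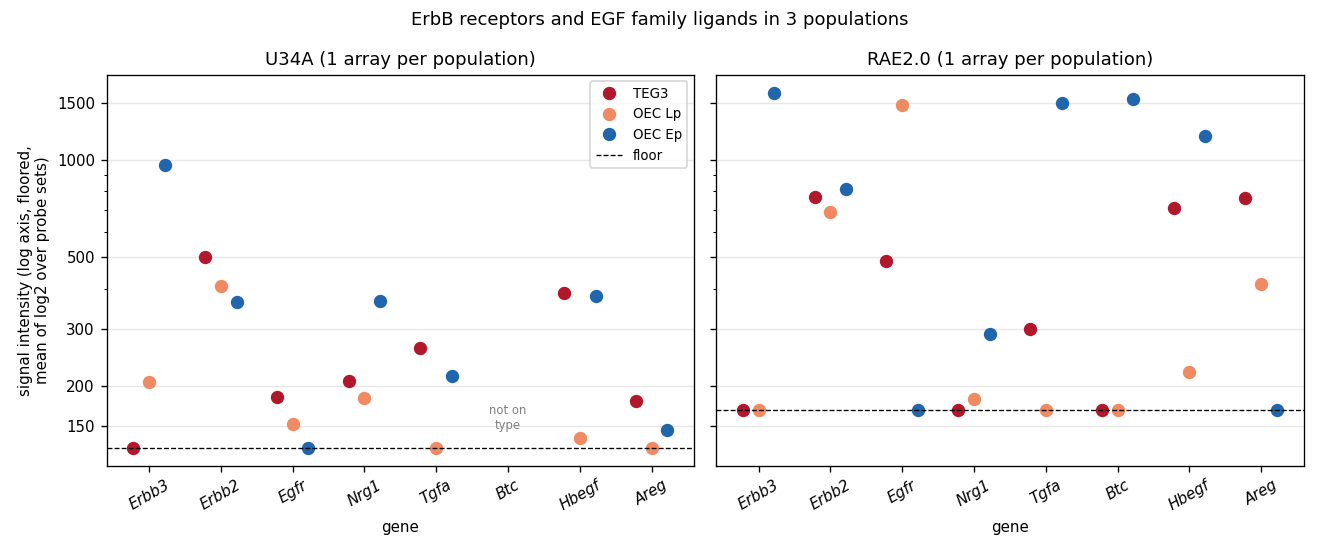
Signal intensity of 8 genes of the family (y axis, log scale, after the floor and averaged on the log2 scale over a gene's probe sets) in TEG3, OEC Lp and OEC Ep on the U34A array (left) and the RAE2.0 array (right); each point is 1 array and the dashed line is the floor. Erbb3 is highest in OEC Ep on both types, with 966 on U34A and 1617 on RAE2.0, and Egfr is highest in OEC Lp on RAE2.0, with 1484.

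Erbb3, the neuregulin receptor, had the lowest adjusted p of the family in both comparisons with OEC Ep, in which it was lower. Its U34A probe set U29339_at had a signal of 122 in TEG3, 332 in OEC Lp and 2162 in OEC Ep. The other U34A set, U52530_s_at, had 129 in TEG3, 105 in OEC Lp and 432 in OEC Ep. On RAE2.0 the signal was 167 in TEG3, 64 in OEC Lp and 1617 in OEC Ep. OEC Ep was thus the highest population on all 3 probe sets, and TEG3 and OEC Lp were at or near the floor on all but U29339_at, where OEC Lp stayed above it. Erbb3 fell in OEC Lp against OEC Ep (fitted log2 fold -2.75 ± 0.37 SE, limma adjusted p = 0.0162), by 6.51-fold on U29339_at, at least 3.36-fold on U52530_s_at and at least 9.62-fold on RAE2.0. It also fell in TEG3 against OEC Ep (-3.09 ± 0.37, adjusted p = 0.0165), by at least 16.8-fold on U29339_at, 3.35-fold on U52530_s_at and at least 9.62-fold on RAE2.0. The fitted folds average these values, floored ones included, and are no bounds. Floored values enter the SE too. The RAE2.0 set passed the filter through OEC Ep alone, so in both comparisons it could only be lower. Both calls lean that way, and only the U34A sets were free to differ in either direction. Without a floor the log2 folds were -3.52 ± 0.67 in OEC Lp and -3.11 ± 0.67 in TEG3, each against OEC Ep. In TEG3 against OEC Lp the log2 fold was -0.34 ± 0.37 (adjusted p = 0.735), with opposite signs of the unfloored signals on U29339_at and on RAE2.0. The calls did not hold in fits without any 1 of the 6 arrays, where the log2 fold ran from -3.18 to -2.32 for OEC Lp (adjusted p = 0.0757 to 0.276) and from -3.44 to -2.74 for TEG3 (0.0998 to 0.255), nor without a floor (adjusted p = 0.0896 and 0.121).

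Erbb2, the partner of Erbb3, was above the floor on all arrays. On U34A its signals were 500 in TEG3, 407 in OEC Lp and 364 in OEC Ep. On RAE2.0 they were 769 in TEG3, 690 in OEC Lp and 812 in OEC Ep. The order of the populations differed between the types, and the widest ratio within a type was 1.37-fold. No comparison passed limma. The log2 fold was -0.04 ± 0.31 in OEC Lp against OEC Ep (adjusted p = 0.963), and for TEG3 it was 0.19 ± 0.31 relative to OEC Ep (0.775) and 0.23 ± 0.31 relative to OEC Lp (0.809). The other receptor partner, Erbb4, had RAE2.0 levels of 168 in TEG3, 173 in OEC Lp and 168 in OEC Ep, which is at or just above the floor.

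Egfr, the receptor of Tgfa and related ligands, had its lowest signals in OEC Ep and its highest in OEC Lp on RAE2.0. Probe set 1370830_at had 598 in TEG3, 1455 in OEC Lp and 117 in OEC Ep. Probe set 1381145_at had 399 in TEG3, 1513 in OEC Lp and 167 in OEC Ep, while the dim set 1385413_at had 23, 29 and 13 in the same order. On both bright sets the order was OEC Lp, TEG3, OEC Ep, with OEC Ep below the floor. On U34A the single set had 185 in TEG3, 153 in OEC Lp and 107 in OEC Ep, all near the floor, although the annotation gives the same source record for it as for 1370830_at. The RAE2.0 ratio was at least 8.83-fold for OEC Lp against OEC Ep and at least 2.91-fold for TEG3 against OEC Ep, and the U34A ratios were at least 1.19-fold and at least 1.44-fold. With this disagreement between the types neither comparison passed limma, at log2 folds of 1.70 ± 0.69 (adjusted p = 0.259) and 1.03 ± 0.69 (0.438). In TEG3 against OEC Lp the log2 ratio was 0.27 on U34A and -1.60 on RAE2.0 (adjusted p = 0.723).

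The sequences just upstream of the start sites are shown for the members whose signals differed most on RAE2.0, so that the letters next to genes that were high in different populations can be compared. RefSeq promoters were found for 6 of the 9 genes on rat build GRCr8; those of Erbb3, Nrg1 and Ereg were not analysed here. The 250 bases before the start are chr14:95378376-95378625 (plus strand) for Egfr, chr4:120175469-120175718 (plus) for Tgfa, chr14:16992418-16992667 (plus) for Btc, chr18:28390221-28390470 (minus) for Hbegf and chr14:17265642-17265891 (minus) for Areg. Capitals mark matches on either strand to 6 motifs. The cAMP response element was searched as TGACGTCA and the TATA box as TATAAA. The GC box, bound by SP factors, was searched as GGGCGG, and the box of the nuclear factor Y complex as CCAAT. The AP-1 site was searched as TGANTCA, and the element of SOX factors, which act in glia, as ACAANG.
Egfr: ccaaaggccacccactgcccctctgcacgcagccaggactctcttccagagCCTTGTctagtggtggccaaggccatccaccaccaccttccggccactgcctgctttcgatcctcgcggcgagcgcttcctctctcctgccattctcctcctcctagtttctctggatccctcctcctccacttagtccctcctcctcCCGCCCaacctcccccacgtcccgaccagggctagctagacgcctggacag
Tgfa: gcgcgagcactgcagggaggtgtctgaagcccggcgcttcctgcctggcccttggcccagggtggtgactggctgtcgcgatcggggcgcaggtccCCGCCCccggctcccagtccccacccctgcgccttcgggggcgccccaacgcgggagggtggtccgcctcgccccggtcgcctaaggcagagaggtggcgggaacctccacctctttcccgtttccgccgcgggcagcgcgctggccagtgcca
Btc: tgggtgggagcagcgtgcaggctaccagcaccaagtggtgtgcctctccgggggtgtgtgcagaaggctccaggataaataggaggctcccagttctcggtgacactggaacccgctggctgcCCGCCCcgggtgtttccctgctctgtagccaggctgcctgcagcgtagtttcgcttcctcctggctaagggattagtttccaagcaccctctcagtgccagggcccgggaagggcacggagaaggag
Hbegf: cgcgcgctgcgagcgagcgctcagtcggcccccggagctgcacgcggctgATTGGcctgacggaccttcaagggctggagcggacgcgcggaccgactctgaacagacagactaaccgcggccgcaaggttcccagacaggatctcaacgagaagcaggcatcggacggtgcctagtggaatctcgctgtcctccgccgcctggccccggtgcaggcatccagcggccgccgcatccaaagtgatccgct
Areg: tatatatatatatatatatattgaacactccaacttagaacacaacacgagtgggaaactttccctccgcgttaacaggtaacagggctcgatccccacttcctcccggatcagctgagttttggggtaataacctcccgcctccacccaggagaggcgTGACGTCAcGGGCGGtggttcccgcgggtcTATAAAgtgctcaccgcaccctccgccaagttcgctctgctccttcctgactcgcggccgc
Areg alone of the 6 held the cAMP response element, from base -91 to -84, and the TATA box, from -61 to -56; among all 33469 promoters of this length these letters were in 1.59% and 12.9%. The GC box was in 5 of the 6, Areg, Btc, Egfr, Erbb2 and Tgfa, against 30.5% of all promoters. Hbegf and Erbb2 had CCAAT (34% of all), Egfr had the SOX letters (36.9% of all), and none had the AP-1 letters (6.34% of all). No 2 matches overlapped. A match is a description of the letters and not a site.

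Nrg1, neuregulin 1, was read by 15 probe sets made from different cDNA records, 7 on U34A and 8 on RAE2.0, of which 3 and 5 exceeded the floor; which isoform each reads is not given by the annotation. The brightest set on U34A, U02322_s_at, had 262 in TEG3, 378 in OEC Lp and 1084 in OEC Ep. The next, M92430_at, had 263 in TEG3, 126 in OEC Lp and 345 in OEC Ep. OEC Ep was highest on both, and the order of TEG3 and OEC Lp was opposite. On RAE2.0 the brightest set, 1369783_a_at, had 159 in TEG3, 33 in OEC Lp and 753 in OEC Ep. Sets 1370607_a_at and 1371211_a_at had 59 and 13 in TEG3, 116 and 33 in OEC Lp, and 325 and 291 in OEC Ep. Of the sets above the floor somewhere, only 1371218_a_at and 1388258_at were highest in OEC Lp, with 239 and 179 there, 40 and 112 in TEG3, and 124 and 109 in OEC Ep; both come from 1 source record. Averaged over the 8 sets that exceeded the floor, Nrg1 did not pass. Its log2 fold was -0.83 ± 0.30 in OEC Lp (limma adjusted p = 0.211) and -0.80 ± 0.30 in TEG3 (0.206), both against OEC Ep. Of these sets, U02318_at (10, 21 and 132), 1369783_a_at, 1370607_a_at and 1371211_a_at exceeded the floor in OEC Ep alone and could only be lower elsewhere. Sets 1371218_a_at and 1388258_at exceeded it in OEC Lp alone. Without the filter, where sets floored on all arrays enter too, the log2 fold was -0.42 in both comparisons (limma adjusted p = 0.194 and 0.198). With the brightest set of each type in place of the mean, both passed, with log2 folds of -1.84 (adjusted p = 0.0355) and -2.11 (0.0298). These sets were picked by their mean signal over the 3 arrays of a type, to which OEC Ep gave most. The choice thus leans towards sets that are high in OEC Ep, and no conclusion is drawn from it. TEG3 and OEC Lp differed by 0.02 ± 0.30 (adjusted p = 0.996).

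**Figure D2:**
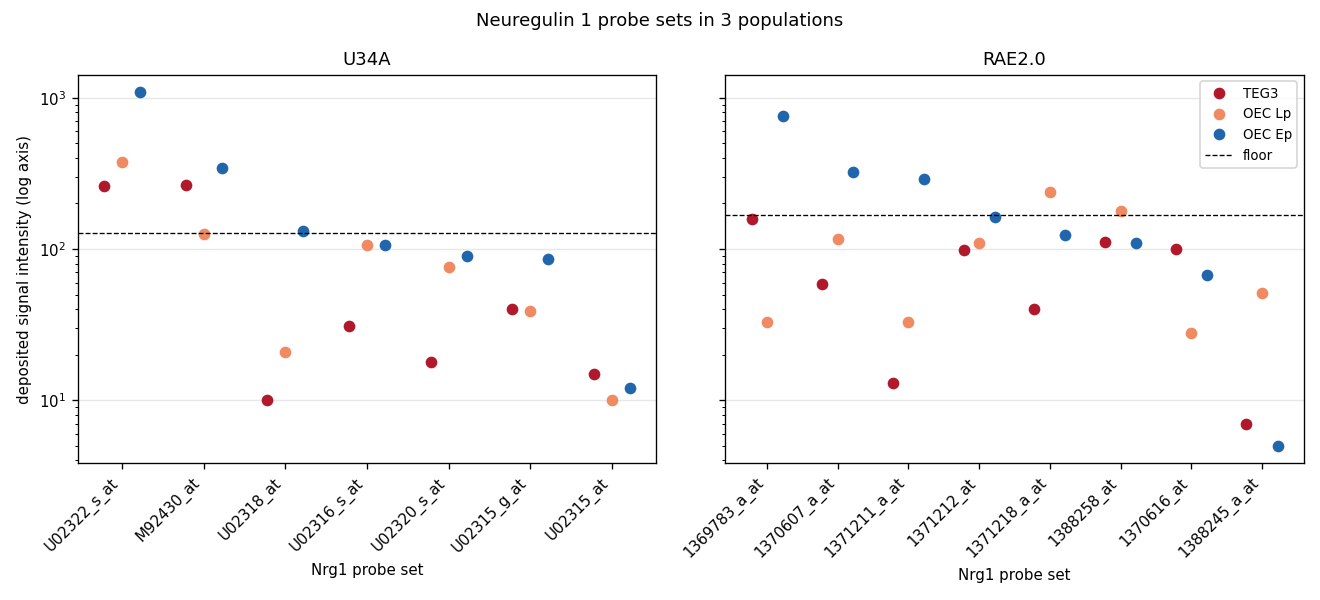
Deposited signal intensity (y axis, log scale) of each Nrg1 probe set (x axis, ordered by the signal in OEC Ep) in TEG3, OEC Lp and OEC Ep on U34A (left) and RAE2.0 (right); each point is 1 array and the dashed line is the floor. OEC Ep is highest on the brightest sets, with 1084 on U34A and 753 on RAE2.0, while 1371218_a_at is highest in OEC Lp with 239.

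Tgfa, a ligand of Egfr, was low in OEC Lp on every probe set. On RAE2.0, set 1381449_s_at had 505 in TEG3, 23 in OEC Lp and 2355 in OEC Ep. Set 1387450_at had 178 in TEG3, 7 in OEC Lp and 953 in OEC Ep. On U34A the signals were 262 in TEG3, 9 in OEC Lp and 215 in OEC Ep. TEG3 thus lay between the others on RAE2.0 and near OEC Ep on U34A. The ratio of OEC Ep over OEC Lp was at least 8.92-fold on RAE2.0 and at least 1.67-fold on U34A, and the log2 fold of -1.95 ± 0.68 did not pass (limma adjusted p = 0.198). Without a floor it passed (adjusted p = 0.0463), but this rests on OEC Lp signals of 9, 23 and 7, far below the floors, so no fold is given. In TEG3 the log2 fold was -1.02 ± 0.68 against OEC Ep (adjusted p = 0.442), with -2.32 on RAE2.0 and 0.29 on U34A, and 0.93 ± 0.68 against OEC Lp (0.598).

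Btc, betacellulin, a ligand of Egfr and Erbb4, had RAE2.0 signals of 69 in TEG3, 37 in OEC Lp and 1540 in OEC Ep. Only OEC Ep was above the floor, at least 9.17-fold over each of the others, with 1 array per population and no test. Ereg, epiregulin, had 84 in TEG3, 128 in OEC Lp and 117 in OEC Ep, all below the floor.

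Hbegf, the heparin-binding ligand of Egfr and Erbb4, was low in OEC Lp alone. On U34A the set L05489_at had 389 in TEG3, 138 in OEC Lp and 379 in OEC Ep. On RAE2.0 the signals were 710 in TEG3, 221 in OEC Lp and 1186 in OEC Ep. TEG3 and OEC Ep stood above OEC Lp on both types, and the second U34A set, rc_AI059540_at, stayed below the floor with 22, 103 and 17. Hbegf fell 3.84-fold in OEC Lp against OEC Ep (log2 fold -1.94 ± 0.36, limma adjusted p = 0.0385). TEG3 against OEC Ep had -0.35 ± 0.36 (adjusted p = 0.63). TEG3 against OEC Lp had a 3.01-fold higher level (1.59 ± 0.36) that did not pass (adjusted p = 0.124). The call of OEC Lp was lost in fits without any 1 of the 6 arrays, at log2 folds from -2.38 to -1.50 (adjusted p = 0.123 to 0.315), and without a floor at an unmoved -1.94 (0.11). With the floor at the 20th percentile, which admits rc_AI059540_at, the log2 fold was -1.21 (0.475).

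Areg, amphiregulin, a ligand of Egfr, differed between the types. On RAE2.0 its signals were 765 in TEG3, 413 in OEC Lp and 134 in OEC Ep, where only OEC Ep was below the floor. On U34A they were 180 in TEG3, 11 in OEC Lp and 146 in OEC Ep, where only OEC Lp was below it. TEG3 was the highest population on both types. The log2 fold in TEG3 against OEC Ep was 1.24 ± 0.51 (limma adjusted p = 0.236), with at least 4.55-fold on RAE2.0 and 1.23-fold on U34A. In OEC Lp against OEC Ep it was 0.56 ± 0.51 (adjusted p = 0.62), and without a floor it was -1.05 (0.739), which rests on the U34A signal of 11. In TEG3 against OEC Lp it was 0.69 ± 0.51 (adjusted p = 0.605).

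The comparison of OEC Lp with OEC Ep set long-passaged against short-term cultures. Their cell type markers differed too, as given above, and the part of passage and of cell make-up was not tested. In the ErbB family 2 of 7 tested genes fell, Erbb3 and Hbegf, and 0 rose, where limma called 4.02% of all 3131 genes as lower and 2.11% as higher (6.13% in either direction). At an unadjusted p under 0.05 there were 4 of 7, against 612 of all 3131 genes. On RAE2.0, 4 of the 8 genes with a passing probe set (Erbb3, Btc, Tgfa and Hbegf) were lower in OEC Lp by at least 2-fold, against 10.4% of 11542 genes, and 2 were at least 2-fold higher (Egfr and Areg), against 10.4%. On U34A, 2 of 7 were at least 2-fold lower (Erbb3 and Hbegf), against 10.1%, and 0 at least 2-fold higher, against 11%. The median log2 ratio was -0.83 over the 7 genes and 0.11 over all genes tested, and on RAE2.0 -1.54 over the 8 genes and 0.10 over all genes. A probe set that passed through its signal in a single population had to differ, so these counts lean towards differences.

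The comparison of TEG3 with OEC Ep set the immortalised line against short-term cultures. These populations also differed in the age of the rats, in clonal origin and in cell type markers, and the part of each was not tested. Erbb3 fell as 1 of 7 genes, 0 rose, and 2 had an unadjusted p under 0.05, against 678 of all 3131 genes; limma called 3.7% of all genes as lower and 0.639% as higher (4.34% in either direction). On RAE2.0, Erbb3, Btc and Tgfa were at least 2-fold lower in TEG3, 3 of 8 against 10.6% of all genes, and Egfr and Areg at least 2-fold higher, 2 of 8 against 12%. On U34A, Erbb3 was the 1 of 7 at least 2-fold lower, against 12.9%, and 0 were at least 2-fold higher, against 10.5%. The family median was -0.35, and that of all genes 0.04. Both comparisons share the OEC Ep arrays. On RAE2.0 the sets of Erbb3 and Btc passed the filter through OEC Ep alone, so in both comparisons they could only be lower. The counts of lower genes on RAE2.0 lean that way, and no conclusion is drawn from them. The limma calls of Erbb3 rest in part on its RAE2.0 set and lean that way too.

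In TEG3 against OEC Lp, limma called 0 of 7 genes of the family and 1.21% of all genes. At an unadjusted p under 0.05 there was 1 of 7 (Hbegf), against 483 of all 3131 genes. On RAE2.0 Hbegf was at least 2-fold higher in TEG3, 1 of 8 against 9.61% of all genes, and Egfr at least 2-fold lower, 1 of 8 against 8.66%. On U34A, Hbegf and Tgfa were at least 2-fold higher, 2 of 7 against 8.08%, and 0 lower, against 11.6%. The family median was 0.23, and that of all genes -0.01.

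**Figure D3:**
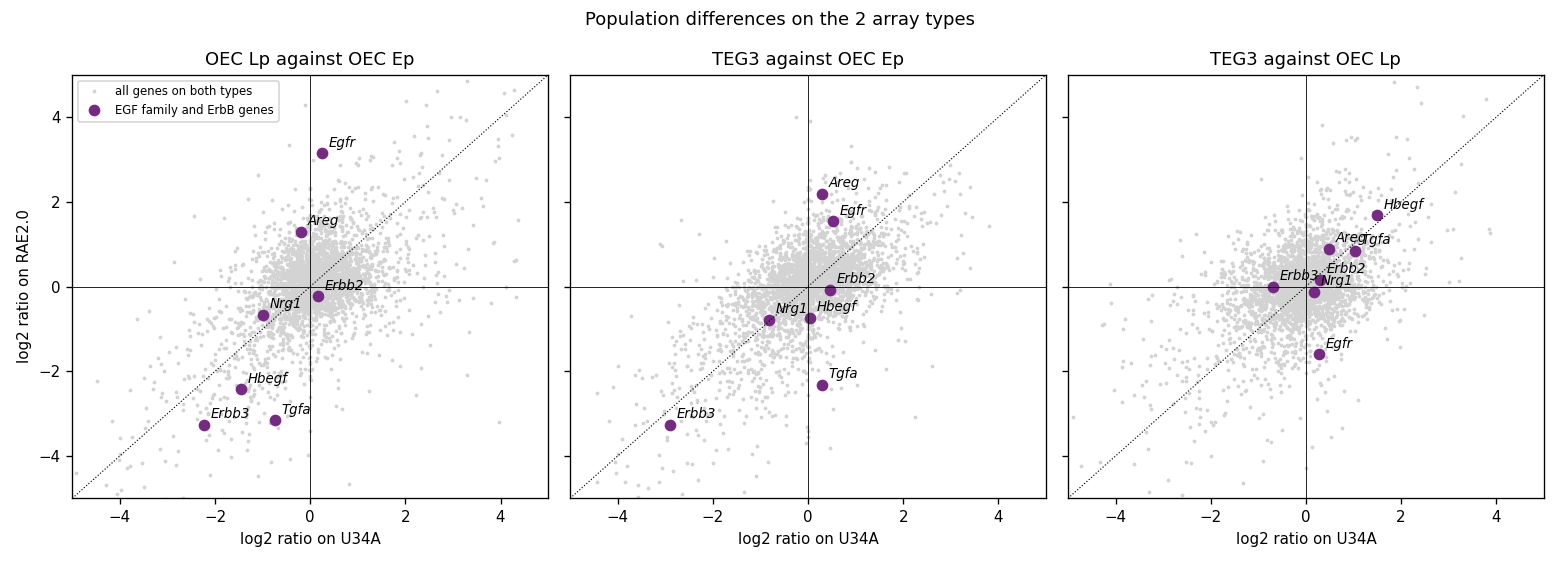
Log2 ratio on U34A (x axis) against that on RAE2.0 (y axis) for 3131 genes on both types (grey) and 7 genes of the family (purple, named) in 3 comparisons, after the floor; the dotted line marks equal ratios. Erbb3 lies at -2.23 and -3.27 in OEC Lp against OEC Ep and at -2.91 and -3.27 in TEG3 against OEC Ep, while Egfr lies near 0 on U34A and at 3.14 and 1.54 on RAE2.0. Axes end at -5 and 5, so genes with wider ratios are not drawn.

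Other genes of the pathway were taken by list. Of the genes for shedding and binding of ligands, 10 of 12 were measured and 5 tested over both types. Cd9, a tetraspanin that associates with the Hbegf precursor, had levels of 1767 in TEG3, 1126 in OEC Lp and 4745 in OEC Ep on U34A. On RAE2.0 it had 4211 in TEG3, 4903 in OEC Lp and 17055 in OEC Ep. OEC Ep was the highest on both types. Cd9 fell in OEC Lp against OEC Ep (log2 fold -1.94 ± 0.34, limma adjusted p = 0.0349), the 1 of 5 that was called, against 6.13% of all genes. In TEG3 against OEC Ep it had -1.72 ± 0.34 (adjusted p = 0.058). There 0 of 5 were called, against 4.34% of all genes, and 3 had an unadjusted p under 0.05, against 678 of all 3131. Cd44, a hyaluronan receptor, and Timp3, an inhibitor of the shedding protease Adam17, did not pass, at -1.83 (adjusted p = 0.134) and -1.72 (0.269) in OEC Lp against OEC Ep and at -2.04 (0.106) and -2.42 (0.131) in TEG3 against OEC Ep. On RAE2.0, 3 of 9 genes of this list were at least 2-fold lower and 0 higher in OEC Lp against OEC Ep, where all genes had 10.4% and 10.4%. In TEG3 against OEC Ep 6 of 9 were lower and 0 higher, where all genes had 10.6% and 12%. The median log2 ratios were -0.60 and -1.11, and those of all genes 0.10 and 0.11.

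Inhibitors of ErbB receptors and genes of their turnover had 10 of 13 genes measured and 0 of 3 called in each comparison (0 at an unadjusted p under 0.05). Lrig1, a membrane protein that promotes breakdown of ErbB receptors, was on RAE2.0 only, with 730 in TEG3, 3073 in OEC Lp and 12039 in OEC Ep. Relative to OEC Ep its log2 ratio was -4.04 in TEG3 and -1.97 in OEC Lp, with no test. The lowest p in OEC Lp against OEC Ep was that of Sh3gl1, an endophilin of receptor uptake (log2 fold 0.67, adjusted p = 0.299), and in TEG3 against OEC Ep that of Errfi1, an inhibitor of Egfr kinase (0.39, adjusted p = 0.483). The median of the list on RAE2.0 was -0.14 in OEC Lp against OEC Ep, with 0 genes at least 2-fold higher and 3 lower of 10, and -0.0026 in TEG3 against OEC Ep, with 0 and 2. All genes had 10.4% higher and 10.4% lower in OEC Lp, and 12% and 10.6% in TEG3.

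Adaptors and kinases downstream of the receptors had 36 of 44 genes measured and 25 tested over both types, of which limma called 0 in each comparison; at an unadjusted p under 0.05 there were 5 for OEC Lp and 1 for TEG3, each set against OEC Ep, and 1 for TEG3 set against OEC Lp, where the counts over all 3131 genes are the 612, 678 and 483 given above. The lowest adjusted p in OEC Lp against OEC Ep was that of the kinase gene Pak1 (log2 fold -1.20, adjusted p = 0.181), and in TEG3 against OEC Ep that of the phospholipase gene Plcg1 (1.17, adjusted p = 0.114). Gab1, a docking protein, was on RAE2.0 only, with 2068 in TEG3, 617 in OEC Lp and 5685 in OEC Ep. On RAE2.0, 4 of 33 genes were at least 2-fold higher and 4 lower in OEC Lp against OEC Ep, and 1 and 3 in TEG3 against OEC Ep, with medians of 0.07 and -0.09. The shares over all genes were 10.4% higher and 10.4% lower in OEC Lp, and 12% and 10.6% in TEG3.

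Genes induced by the kinase ERK, which acts downstream of ErbB receptors among many others, had 20 of 23 genes measured and 13 tested over both types. Limma called 0 in each comparison (4, 3 and 1 at an unadjusted p under 0.05 in that same order, against 612, 678 and 483 of all 3131 genes). Egr1, an early response transcription factor, had U34A levels of 1883 in TEG3, 1930 in OEC Lp and 778 in OEC Ep. Its RAE2.0 levels were 15598 in TEG3, 18532 in OEC Lp and 2241 in OEC Ep. Both TEG3 and OEC Lp were above OEC Ep on each type, at log2 folds of 2.04 (limma adjusted p = 0.0918) and 2.18 (0.0717), neither of which passed. Jun had -2.21 in TEG3 (adjusted p = 0.0516) and -1.46 in OEC Lp (0.131), both against OEC Ep. Spry2, a feedback inhibitor of receptor tyrosine kinases, had RAE2.0 levels of 1798 in TEG3, 447 in OEC Lp and 4586 in OEC Ep. On RAE2.0, 6 of 20 genes were at least 2-fold higher and 4 lower in OEC Lp against OEC Ep, and 2 and 5 in TEG3 against OEC Ep, with medians of 0.43 and -0.42. Over all genes 10.4% were higher and 10.4% lower in OEC Lp, and 12% and 10.6% in TEG3. Of the remaining ligands and the receptor Erbb4, 3 of 6 genes were measured. Nrg2, neuregulin 2, had 740 in TEG3, 303 in OEC Lp and 246 in OEC Ep on U34A, but 182, 168 and 181 on RAE2.0, and Egf had 288, 168 and 218 on RAE2.0; Nrg2 passed in no comparison (adjusted p from 0.371 to 0.935).

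**Figure D4:**
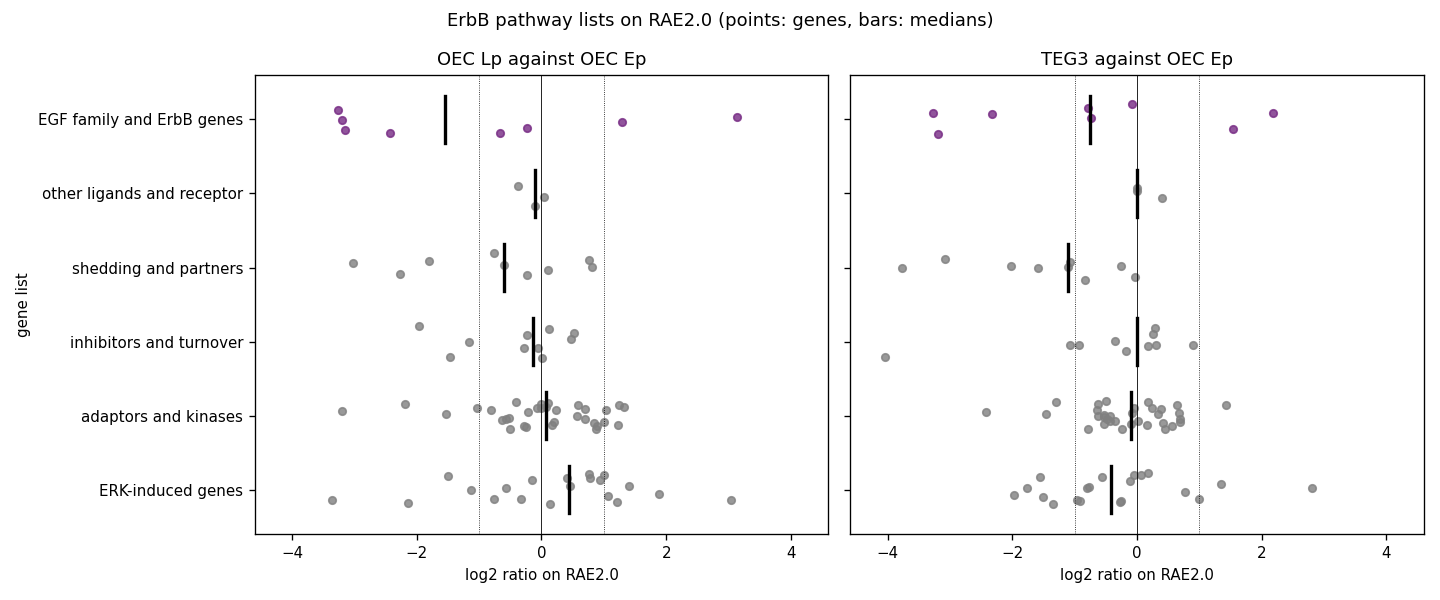
Log2 ratio on RAE2.0 (x axis) of each gene (points) in 6 lists of the ErbB pathway (y axis; vertical positions are jittered) in OEC Lp against OEC Ep (left) and TEG3 against OEC Ep (right), with list medians as bars and 2-fold as dotted lines. The family spans -3.27 to 3.14 in the left panel, while the median of adaptors and kinases is 0.07.

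Genes with the pattern most like that of the 2 called members were sought among the genes on both types, by the Euclidean distance of log2 signals centred within each type over the 6 arrays. Nearest to Erbb3 were Plpp1, a lipid phosphatase, Plau, the urokinase plasminogen activator, Plek, pleckstrin, and Slc18a2, a vesicular monoamine transporter, at distances of 0.484, 0.491, 0.493 and 0.556, where the median of all genes was 3.64. Nearest to Hbegf were Atp9a, a phospholipid-transporting ATPase, Ripk3, a kinase of necroptosis, Runx1, a transcription factor, and Slc2a3, a glucose transporter, at 0.474, 0.524, 0.661 and 0.668, where the median was 2.39. The arrays are shared by all genes, so these distances describe the 6 arrays only. The named genes were picked as the nearest of 3131, so distances far under the median follow from the choice. Likeness beyond chance was not tested.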

How the data were processed

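Total RNA of 3 populations was measured on 6 Affymetrix arrays. The deposited values are signal intensities per probe set on a linear scale, which the authors computed with the MAS5 method, per the labels, in Microarray Suite version 5.0 per the series' design text; detection calls are not given in the sources used here. Probe sets were named through the platform annotation where it gave 1 symbol. Control sets were left out, 59 on U34A and 57 on RAE2.0. Arrays of a type were scaled to the same mean, trimmed by 2% on either side, with factors from 0.9999 to 1.0002, and then floored. A probe set was kept if any of the 3 arrays of its type lay above the floor, and log2 signals were averaged over the probe sets of a gene.

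For the 3131 genes present on both types, limma 3.58.1 (R 4.3.3) estimated population effects with array type as the replicate block. The threshold was a Benjamini-Hochberg adjusted p of 0.05 over all 3131. The error is the disagreement of the types, with 2 residual degrees of freedom and 3.56 from the prior. The script was tested on simulated data. Alternatives varied the floor, filter, scaling, probe set choice, block and arrays. All 9 members were named, and at most 5 genes per pathway list, taken from those with the lowest p and those with the largest ratio on RAE2.0 alone. The members and lists were chosen with earlier results of these data known.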

Additional observations from a re-analysis of the deposited data

How the results depend on the processing

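Quantile normalization left 2, 1 and 0 members called in OEC Lp against OEC Ep, in TEG3 against OEC Ep and, last, in TEG3 against OEC Lp, as in the fit reported. The brightest probe set per gene gave 3, 2 and 0, adding Nrg1, whose brightest sets were bright through OEC Ep. In OEC Lp against OEC Ep, 1 member was called without a floor, and 0 with the floor at the 20th percentile, without the filter on dim probe sets, among genes above the floor on all 6 arrays, without the replicate block of array type or with only the 4 arrays of the populations compared; in TEG3 against OEC Ep all of these settings gave 0. Over all genes the calls of 192, 136 and 38 became 66, 11 and 0 without a floor and 1, 1 and 0 without the filter. They became 46 and 66 in the first 2 comparisons among genes above the floor on all 6 arrays, where fewer genes are tested, and 4 in TEG3 against OEC Lp with the floor at the 20th percentile. With the 4 arrays alone they were 41, 0 and 0. Without the replicate block limma called 0, 0 and 0 genes, with 193, 172 and 110 at an unadjusted p under 0.05. Leaving out 1 array gave 0 to 41, 0 to 0 and 0 to 0 calls over all genes, and 0 to 0 members in each comparison; the single array left in a population was taken to vary as the others do.

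The direction turned, with no call on either side, for Areg in OEC Lp against OEC Ep without a floor (log2 fold -1.05) and with the floor at the 20th percentile (-0.18). In TEG3 against OEC Lp it turned for Erbb3 (0.40 under each of these floors) and for Nrg1 (-0.42 without a floor, -0.27 at the 20th percentile, -0.0014 without the filter and -0.26 with the brightest set). Leaving out 1 array turned some values: Erbb2 ran from -0.27 to 0.20 and Areg from -0.29 to 1.40 in OEC Lp against OEC Ep; Erbb2 from -0.043 to 0.42, Hbegf from -0.79 to 0.085 and Tgfa from -2.27 to 0.24 in TEG3 against OEC Ep; and Nrg1 from -0.13 to 0.18, Erbb3 from -0.77 to 0.090 and Egfr from -1.86 to 0.53 in TEG3 against OEC Lp. Except where fewer genes or arrays enter, the cause was not tested. Signals at or near the floor limit what can be said of Egfr on U34A, Ereg and Erbb4. The same holds for Erbb3 and Btc in TEG3 and OEC Lp on RAE2.0. It also holds for Tgfa in OEC Lp, for Areg on U34A and for many Nrg1 sets.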
